A study of Mus musculus with 6 samples.

Results

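The genes described here encode the enzymes that make serine, pass its one-carbon unit to folate and make asparagine. They are the 10 members Phgdh, Psat1, Psph, Shmt1, Shmt2, Mthfd1, Mthfd1l, Mthfd2, Aldh1l2 and Asns, found by their symbol among the 49315 genes in the deposited count table. RAW264.7 is a macrophage-like mouse cell line of wild-type genotype, and the libraries came from cells given 4 μg/mL of SKI-II, an inhibitor of sphingosine kinases, or the vehicle DMSO for 24 h. Each group had 3 libraries of poly(A)-selected RNA, and all 6 were made from this 1 cell line. The labels do not say whether the libraries of a group came from separate cultures, so p-values measure only the spread between these libraries. The library totals ran from 12495957 to 20050677 counts. All 9 macrophage markers examined, such as Cd68 and Csf1r, were detected, and their normalized counts summed to 134506 to 199951 per DMSO library and 64717 to 104492 per SKI-II library. Lyz2 carried most of that difference, and without it the other 8 summed to 44654 to 49377 and 41097 to 43210. Of the 9, 4 (Adgre1, Itgam, Lyz2 and Mrc1) were lower in SKI-II, where 19.7% of all tested genes were lower. For Mrc1 this held in only 2 of the 6 fits that left out a library. Of 10 markers of other cell types, 9 stayed under 20 counts in every library, Epcam, Krt18 and Ly6g among them at 0. The exception was S100a8, a neutrophil marker, with 36, 56 and 102 counts in DMSO replicates 1 to 3 and 27, 117 and 93 in SKI-II. The 10 markers summed to 45.7 to 121 normalized counts per DMSO library and 61.5 to 130 per SKI-II library. The part of these markers in the results was not tested.

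Serine is built in the cytosol from the glycolytic intermediate 3-phosphoglycerate by PHGDH, PSAT1 and PSPH in turn. Serine hydroxymethyltransferases then move a carbon from serine to tetrahydrofolate, leaving glycine, and the carbon is oxidized in the mitochondrion, exported as formate and used in the cytosol for purines, thymidylate and methyl groups. The same chemistry exists in both compartments as paired enzymes. Many genes of this route, and Asns, are known targets of the transcription factor ATF4, which is made under amino acid shortage and endoplasmic reticulum stress.

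All 10 members had enough reads for the test, the quasi-likelihood F test of edgeR, with p-values adjusted after Benjamini and Hochberg over 12274 genes. A gene was called at an adjusted p below 0.05. The members did not move together: 2 rose (Aldh1l2 and Psph), 5 fell (Shmt1, Mthfd1, Psat1, Mthfd2 and Shmt2) and 3 were not called (Phgdh, Mthfd1l and Asns). Among all tested genes 18.4% were called higher and 19.7% lower, so the 2 of 10 called higher were near the background and the 5 of 10 called lower lay above it, a difference that was not tested. Past a log2 fold change of 1, 1 member rose (8.28% of all tested genes) and 2 fell (7.44%). The libraries of the groups did not overlap for 7 members, against 50.3% of all tested genes. The median log2 fold change of the members was -0.25, against 0.00 over all tested genes.

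**Figure D1:**
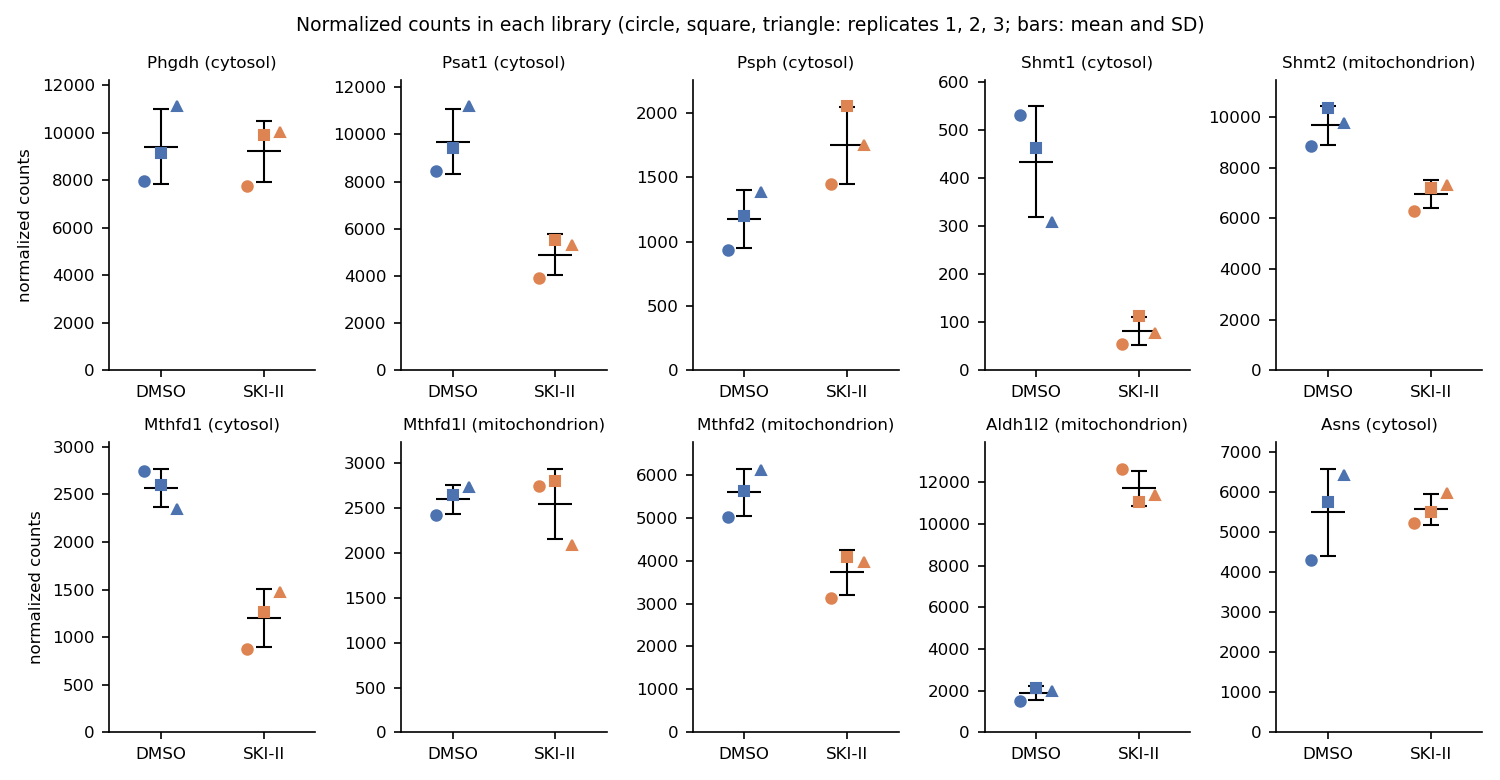
Normalized counts (vertical axes, from 0) of the 10 members in each library of the DMSO and SKI-II groups. Symbols are replicates 1, 2 and 3, and bars are the mean and SD of 3 libraries. Aldh1l2 lies between 11063 and 12644 in SKI-II against 1497 to 2123 in DMSO, and Phgdh, Mthfd1l and Asns overlap between the groups.

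Short stretches of the promoters of Asns and Phgdh are shown first, because they hold the only matches to regulatory motifs that were found in the members. The 250 bases before the RefSeq start (GRCm38.p6) were read for 10 windows of the 9 members other than Aldh1l2, with a pair of windows for Psat1, and searched on both strands. The C/EBP-ATF response element bound by ATF4 was searched as TGATGNAA and the core of the antioxidant response element bound by Nrf2 as TGACNNNGC. Each stretch is written 5′ to 3′ on the strand of the gene, and capitals mark the match.
Asns, C/EBP-ATF element, chr6:7693214-7693243, minus strand: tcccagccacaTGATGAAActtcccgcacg
Asns, antioxidant element core, chr6:7693362-7693391, minus strand: tatcctgcctGCAGTGTCAcagcaccttaa
Phgdh, antioxidant element core, chr3:98340003-98340032, minus strand: gcccggggagGCGGAGTCAgcagagtttaa

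The C/EBP-ATF match in Asns began 23 bases before the RefSeq start, inside the gene as GENCODE M21 draws it. It was the only match to that motif in the 10 windows, while 3.45% of all 32851 promoter windows of the same length held it. The antioxidant core was read on the opposite strand in both cases, 172 bases before the start of Asns and 53 before that of Phgdh, and 10.2% of all windows held it. The matches did not overlap each other. The E-box CACGTG and the E2F motifs TTTCCCGC and TTTGGCGC, held by 6.02%, 0.895% and 0.417% of all windows, were in no member window. These are matches of letters, and neither gene that held one was called.

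Aldh1l2 and Shmt1 changed most, in opposite directions. Aldh1l2 (chromosome 10, 83487450 to 83534140 in GRCm38) encodes the mitochondrial enzyme that oxidizes 10-formyltetrahydrofolate to carbon dioxide and yields NADPH. It held 1497, 2123 and 1992 normalized counts in DMSO replicates 1 to 3 and 12644, 11063 and 11374 in SKI-II. Every SKI-II library was far above every DMSO library, and the SKI-II libraries differed little from each other. The gene rose 6.25-fold, with a 95% interval of 4.93 to 7.93 and an adjusted p of 7.89e-06, and stood at rank 148 of the 12274 tested genes by log2 fold change. Exons of D10Wsu102e on the opposite strand share 1056 bases with it, and that gene held 1144, 1038 and 1115 counts in DMSO, where Aldh1l2 held 1541, 1680 and 2012, and 995, 1144 and 989 in SKI-II, where Aldh1l2 held 11300, 11594 and 13961. Whether counting used strand is not known here, so the DMSO level of Aldh1l2, and with it the size of the rise, is uncertain by the reads in that stretch.

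Shmt1 (chromosome 11, 60788104 to 60811718), the cytosolic serine hydroxymethyltransferase, held 532, 462 and 308 normalized counts in DMSO against 54.8, 113 and 78.2 in SKI-II. The groups were well apart although both were spread, with a coefficient of variation of 26.4% in DMSO and 35.5% in SKI-II. The gene fell by 2.40 on the log2 scale (standard error 0.28, adjusted p = 0.000207), and its fall stayed between -2.69 and -2.20 with any 1 library left out. Against a fold change of 2, that is 1 on the log2 scale, Aldh1l2 and Shmt1 were the only members called, at an adjusted p of 8.09e-05 and 0.0032. Exons of Shmt1 also share a short stretch with Smcr8, a more abundant gene on the opposite strand, so reads there are uncertain. A lower level in a bulk library cannot be told apart from fewer cells that express the gene.

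The 3 enzymes of serine synthesis went 3 ways. Phgdh (chromosome 3, 98313170 to 98339990), which encodes the first enzyme of the route, held 7983, 9154 and 11107 normalized counts in DMSO against 7749, 9882 and 10031 in SKI-II. The groups overlapped throughout. The log2 fold change was -0.03 with a 95% interval of -0.40 to 0.34 (adjusted p = 0.905), which spans changes from -24.2% to 26.5%. Phgdh has 12 annotated processed pseudogenes that match it at 95% identity or more over at least 200 bases, and its counts are uncertain where reads could be split or dropped among them. The 10 of these pseudogenes in the table summed to 726 to 1267 normalized counts per DMSO library and 727 to 1074 per SKI-II library, and the log2 ratio of the group means moved from -0.03 to -0.04 when they were added.

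Psat1 (chromosome 19, 15904678 to 15947337), the aminotransferase of the route, held 8447, 9433 and 11188 normalized counts in DMSO against 3891, 5518 and 5301 in SKI-II. All SKI-II libraries lay below all DMSO libraries, and the level fell by 49.4% (95% interval -61.0% to -34.3%, adjusted p = 0.00166). Psph (chromosome 5, 129765558 to 129787449), the phosphatase of the last step, held 933, 1203 and 1387 in DMSO and 1447, 2052 and 1749 in SKI-II. Its groups stood next to each other with no overlap. Psph rose 1.49-fold (95% interval 1.14 to 1.95, adjusted p = 0.0269), but the adjusted p was 0.078 when DMSO replicate 1 was left out, 0.0795 when DMSO replicate 2 was and 0.114 when SKI-II replicate 2 was, so that each omission ended the call. Its exons share 452 bases with Cct6a on the opposite strand, and whether counting used strand is not given in the sources used here. Reads in that stretch are uncertain.

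The folate enzymes other than Aldh1l2 fell or were not called. Shmt2 (chromosome 10, 127517123 to 127522444), the mitochondrial serine hydroxymethyltransferase, held 8863, 10357 and 9774 normalized counts in DMSO against 6302, 7212 and 7317 in SKI-II. The libraries within each group were close, with a coefficient of variation of 7.79% and 8.04%, and the groups did not overlap. The level fell by 28.1% (95% interval -41.3% to -12.1%, adjusted p = 0.0167), a call lost without DMSO replicate 2 (adjusted p = 0.0899). Mthfd2 (chromosome 6, 83305691 to 83325908), the mitochondrial dehydrogenase and cyclohydrolase that takes the carbon from Shmt2, held 5017, 5629 and 6118 in DMSO and 3125, 4080 and 3977 in SKI-II. It was lower in every SKI-II library and fell by 33.3% (95% interval -46.5% to -16.8%, adjusted p = 0.00998).

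Mthfd1l (chromosome 10, 3973118 to 4167081), the mitochondrial synthetase that releases formate, held 2424, 2643 and 2736 normalized counts in DMSO against 2750, 2799 and 2091 in SKI-II. SKI-II replicates 1 and 2 were above all DMSO libraries and replicate 3 was below them. The log2 fold change was -0.03 (95% interval -0.34 to 0.28, adjusted p = 0.882). Mthfd1 (chromosome 12, 76255298 to 76319803), the cytosolic enzyme that joins 3 of these activities in 1 protein, held 2750, 2603 and 2349 in DMSO and 877, 1260 and 1475 in SKI-II. No library overlapped, and the gene fell by 53.0% (95% interval -64.3% to -38.2%, adjusted p = 0.00123).

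Asns (chromosome 6, 7675169 to 7693254), which encodes the glutamine-dependent asparagine synthetase, held 4290, 5736 and 6429 normalized counts in DMSO against 5213, 5500 and 5964 in SKI-II. The SKI-II libraries all lay inside the range of the DMSO libraries. The log2 fold change was 0.02 with a 95% interval of -0.34 to 0.38 (adjusted p = 0.938). With any 1 library left out it ran from -0.14 to 0.15 and was not called, and likewise for Phgdh (-0.15 to 0.10) and Mthfd1l (-0.10 to 0.09). The libraries ranked alike over many members. DMSO replicate 1 was the lowest of its group in 8 of the 10 members and SKI-II replicate 1 the lowest of its group in 8.

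**Figure D2:**
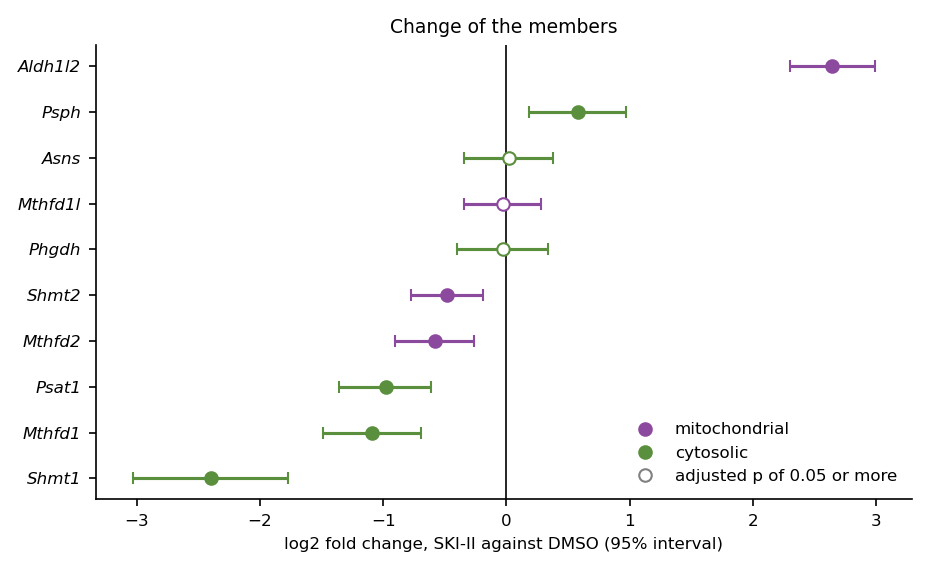
Log2 fold change of each member, SKI-II against DMSO (horizontal axis), with the 95% interval from the edgeR fit, ordered from the largest rise. Color marks the compartment of the enzyme and open circles mark genes that were not called. Aldh1l2 at 2.64 and Psph at 0.58 lie above 0, and the cytosolic Psat1, Mthfd1 and Shmt1 lie lowest, at -0.98, -1.09 and -2.40.

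To compare levels between genes, levels are given per kilobase, as CPM on TMM-scaled library sizes divided by the exonic length in kilobases. In DMSO, Phgdh was the most abundant member at 236 ± 39.6 (SD, n = 3), followed by Shmt2 at 194 ± 15.1, Psat1 at 142 ± 20.3, Asns at 125 ± 24.9 and Mthfd2 at 99.9 ± 9.87. Mthfd1l at 36.6 ± 2.25 and Mthfd1 at 36.0 ± 2.85 were equal within their spread, and Psph at 16.9 ± 3.29 and Aldh1l2 at 15.5 ± 2.74 likewise overlapped. Shmt1 was the lowest at 6.97 ± 1.84. In this order the libraries of neighbours also overlapped for Phgdh and Shmt2, for Psat1 and Asns, and for Asns and Mthfd2.

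In SKI-II the order was different. Aldh1l2 moved from place 9 to place 4, at 97.2 ± 6.96 (SD, n = 3) per kilobase, above every library of Psat1 (71.8 ± 12.9) and Mthfd2 (66.6 ± 9.37), which overlapped each other. Phgdh stayed first at 231 ± 32.0, and Shmt2 at 139 ± 11.2 and Asns at 127 ± 8.63 overlapped. Mthfd1l and Psph, at 35.8 ± 5.55 and 25.2 ± 4.35, overlapped as well, and Mthfd1 at 16.9 ± 4.25 stood below both. Shmt1 was left at 1.31 ± 0.466.

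The mitochondrial and cytosolic forms of an enzyme were compared within each library, where scaling cancels, as the log2 ratio of their counts. For Shmt2 to Shmt1 the ratio was 4.06, 4.48 and 4.99 in DMSO replicates 1 to 3 and 6.83, 6.00 and 6.54 in SKI-II. Both genes fell, and the cytosolic one fell further, so that the ratio was higher by 1.95. For Mthfd1l to Mthfd1 the ratio was -0.18, 0.02 and 0.22 in DMSO and 1.65, 1.15 and 0.50 in SKI-II, higher by 1.08, with SKI-II replicate 3 nearest to the DMSO libraries. For Mthfd2 to Mthfd1 it was 0.87, 1.11 and 1.38 in DMSO and 1.83, 1.69 and 1.43 in SKI-II, higher by 0.53, with SKI-II replicate 3 just above DMSO replicate 3.

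The last pair sets Aldh1l2 against Aldh1l1, its cytosolic counterpart, which is not a member. Aldh1l1 was nearly absent, with raw counts of 12, 17 and 18 in the DMSO libraries and of 0, 0 and 1 in the SKI-II libraries. Adjusted for sequencing depth, the ratio of its counts in SKI-II to those in DMSO was 0.0190 with an exact 95% counting interval of 0.000471 to 0.111, and its adjusted p in the edgeR test was 0.000735. The log2 ratio of Aldh1l2 to Aldh1l1 was higher in all 3 SKI-II libraries, but its size rests on the pseudocount of 0.5. The SKI-II libraries were higher than the DMSO libraries in each of the 4 pairs, and the exact permutation test (both sides) gave p = 0.1 for each, the smallest value that 3 libraries against 3 allow (0.1 after Benjamini-Hochberg adjustment over the 4 pairs). Mthfd1l and Mthfd2 were both set against Mthfd1, so these pairs are not independent.

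The mitochondrial share summarizes these genes as the length-scaled counts of Shmt2, Mthfd1l, Mthfd2 and Aldh1l2 out of these plus Shmt1 and Mthfd1. It was 86.9%, 89.2% and 90.5% in DMSO and 96.1%, 94.7% and 94.0% in SKI-II. The groups did not overlap, and the share was 6.05 percentage points higher in SKI-II (exact permutation test on both sides, p = 0.1, the smallest possible). Without Aldh1l2, an alternative chosen after its values were seen, the share was still higher by 4.63 points, from 88.4% ± 1.81 to 93.1% ± 1.27 (SD, n = 3). The higher share does not mean that the mitochondrial genes rose as a set. Of these genes only Aldh1l2 rose, Shmt2 and Mthfd2 fell and Mthfd1l was not called. The cytosolic genes fell further, Mthfd1 from a mean of 36.0 to 16.9 per kilobase and Shmt1 from 6.97 to 1.31.

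Within the mitochondrial set the makeup changed as well. Aldh1l2 took 3.96%, 4.86% and 4.59% of the length-scaled counts of the 4 genes in DMSO and 32.2%, 26.4% and 27.7% in SKI-II. Shmt2 went from 56.1% ± 1.48 to 41.1% ± 2.11 (SD, n = 3) and Mthfd2 from 28.9% ± 1.35 to 19.6% ± 2.15, while Mthfd1l held 10.6% in both groups. The exact permutation test gave p = 0.1 for the first 3 and p = 1 for Mthfd1l.

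**Figure D3:**
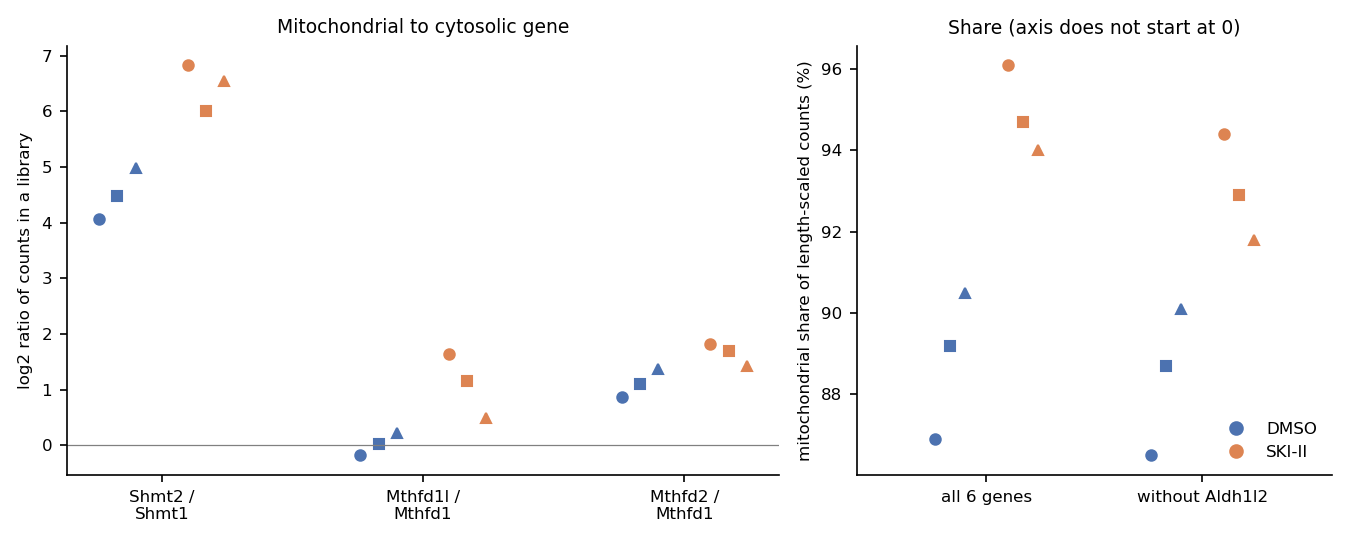
Left, log2 ratio of the counts of a mitochondrial to a cytosolic gene in each library (vertical axis). Right, mitochondrial share of length-scaled counts in percent, with and without Aldh1l2, on an axis that does not start at 0. Symbols are replicates 1, 2 and 3. The SKI-II libraries lie above the DMSO libraries in each column, with the smallest gap for Mthfd2 to Mthfd1, where 1.43 stands against 1.38.

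The genes around the members were read from lists written from general knowledge, with earlier results of these data known. Among the 11 tested genes of a list of 12 other folate enzymes, 5 fell and 1 rose, where 19.7% of all tested genes were lower and 18.4% higher. These enzymes had a median log2 fold change of -0.45, against 0.00 over all tested genes. Atic, of purine synthesis, fell by 0.78 on the log2 scale (adjusted p = 0.00413). Tyms, of thymidylate synthesis, and Gart, of purine synthesis, which were chosen after their values were seen, fell by 1.34 and 1.20 on the same scale. Mthfd2l, a mitochondrial relative of Mthfd2, was at 145 ± 34.7 normalized counts (SD, n = 3) in DMSO, was at 108 ± 29.1 in SKI-II and was not called (adjusted p = 0.248).

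DNA replication genes, given beside this group because dividing cells use folate carbon for DNA, fell in 9 of 10 cases, where 19.7% of all tested genes fell. Their median log2 fold change was -2.19, against 0.00 over all tested genes. Their summed level ran from 29313 to 38445 normalized counts in DMSO, and from 9352 to 12025 in SKI-II. Mcm5, a helicase subunit, and Rrm2, a ribonucleotide reductase subunit, fell by 2.80 and 2.61 on the log2 scale. Their part in the lower level of Shmt1, Mthfd1, Tyms, Gart and Atic was not tested.

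Of the 8 tested carriers and folate-handling genes, 2 fell and 2 rose, each near the 19.7% and 18.4% of all tested genes. Sfxn1, a mitochondrial serine carrier, held 1818, 1816 and 2366 normalized counts in DMSO against 952, 1121 and 1291 in SKI-II, with no overlap, and fell by 0.83 on the log2 scale (adjusted p = 0.00255). Its relative Sfxn3 rose by 0.51 (adjusted p = 0.00703). Slc19a1, the reduced folate carrier, fell by 1.12 (adjusted p = 0.000753), while Slc46a1, the proton-coupled folate transporter, rose by 1.73, from 50.1 ± 5.75 normalized counts to 167 ± 54.5 (SD, n = 3) (adjusted p = 0.00123). Slc25a32, which brings folate into the mitochondrion, had a log2 fold change of -0.49 (adjusted p = 0.0812) and was not called.

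None of the 6 genes of lower glycolysis, whose enzymes make and consume 3-phosphoglycerate and its products, was called by edgeR or, among the alternatives, by DESeq2, and the smallest unadjusted p was 0.054 (Bpgm). Their log2 fold changes lay between -0.15 for Pgam1 and 0.39 for Bpgm. Of 5 tested enzymes that use serine, 3 rose and none fell, beside 18.4% higher and 19.7% lower among all tested genes. Sptlc1, a subunit of serine palmitoyltransferase, which starts sphingolipid synthesis, went from 605, 423 and 331 normalized counts to 1382, 1199 and 869, a log2 fold change of 1.34 (adjusted p = 0.00176), while its partner Sptlc2 was not called at 0.23. Srr, serine racemase, rose by 1.09 (adjusted p = 0.000479), and Sdsl, a serine dehydratase relative, rose by 0.78 (adjusted p = 0.0391), a call that was kept in only 1 of the 6 fits that left out a library. Of 3 tested genes of the glycine cleavage system, 1 was called, beside 19.7% lower among all tested genes. This was Gcsh, which fell by 0.58 (adjusted p = 0.0294), and 3 of the 6 fits that left out a library kept that call.

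Around asparagine, 2 of 7 tested genes fell and none rose, against 19.7% lower and 18.4% higher among all tested genes, so the count was near the background. Asrgl1, an asparaginase, fell by 1.19 on the log2 scale (adjusted p = 0.00145). Got1 and Got2, which make aspartate, were not called, at -0.35 and -0.23.

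ATF4 and genes linked to it outside amino acid synthesis rose in 12 of 13 tested cases and fell in none, where 18.4% of all tested genes rose. Their median log2 fold change was 1.11, against 0.00 over all tested genes. Earlier results on overlapping genes of these libraries were known when this list was written. Trib3 and Ddit3, a pseudokinase and the stress factor CHOP, had the largest rise in the list, each 1.67 on the log2 scale (adjusted p = 0.000714 and 0.00552). Atf4 itself and Cebpg had the smallest that were called, each 0.41, and these calls were kept in 2 and 1 of the 6 fits that left out a library. Beside them, Aldh1l2 and Psph were the members that rose, Asns, Phgdh and Mthfd1l were not called, and Psat1, Shmt2 and Mthfd2 fell.

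**Figure D4:**
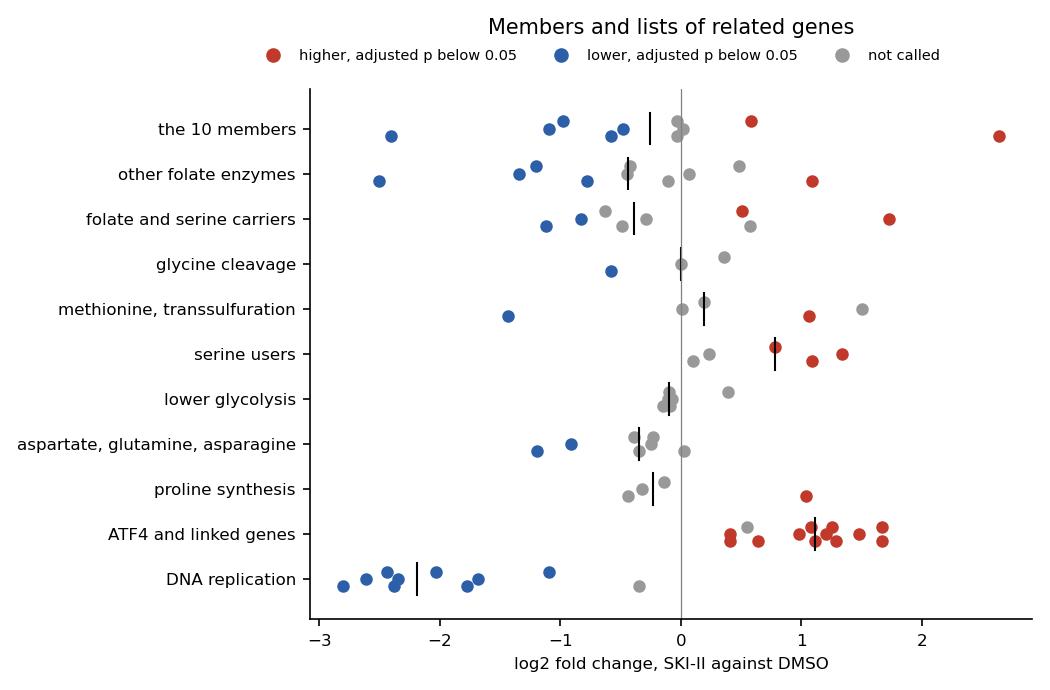
Log2 fold change of each tested gene (points, horizontal axis) for the members and 10 lists of related genes, with a line at the median of the genes drawn. Red points were called higher and blue points lower at an adjusted p below 0.05, and gray points were not called. Aldh1l1, with 1 count in SKI-II, is not drawn. The ATF4-linked genes all lie above 0 and the DNA replication genes below 0, while the members lie on both sides.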

How the data were processed

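RNA from RAW264.7 cells was sequenced in 3 DMSO and 3 SKI-II libraries, grouped by sample title. The submitters' processing notes name Trimmomatic 0.36, STAR 2.5.2b, featureCounts of Subread 1.5.2 and DESeq2, and the authors deposited raw counts per Ensembl gene. Their genome build, annotation release and use of strand were not given in the sources used here. Names, positions and exonic lengths came from GENCODE M21 (GRCm38), which named 48970 of 49315 identifiers.

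Counts were tested with edgeR 4.0.16 (R 4.3.3) by the quasi-likelihood F test, with TMM scaling and its expression filter (minimum count 10, minimum total 15), and Benjamini-Hochberg adjustment over 12274 genes. Normalized counts are counts per TMM-scaled library size times the mean of these sizes, 16042438. Intervals use the moderated standard error of the fit. Within-library log2 ratios used a pseudocount of 0.5. Near copies were sought with blastn 2.17.0. On simulated counts for this comparison, edgeR recovered 100% of 200 genes changed by a log2 fold change of 2 among 12113 genes, with 23 false calls. Smaller changes were not simulated, so the recovery of changes such as those of Psph and Shmt2 was not measured. No pair of libraries of a group agreed within sampling noise (chi-square per degree of freedom 15.4 to 58.1). Counting intervals cover counting error only.

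The members and the 13 lists were chosen with earlier results of these data known. The genes named are the members, Aldh1l1, Mthfd2l, Sfxn1, Slc25a32 and, in each list, the called genes at the top 2 and bottom 2 places by log2 fold change, from which some are shown. Some of these genes are not reported here. Other genes named were chosen after their values were seen. Pycr3 was matched as Pycrl. Alternatives were DESeq2 1.42.0, limma-voom (limma 3.58.1), RLE scaling, library size alone, other filters, each library left out, the replicate number as a block and a test of whether the log2 fold change exceeds 1.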

Additional observations from a re-analysis of the deposited data

How the results depend on the processing

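No member changed direction among those called in any of the 14 alternative fits. The number of members called higher was 1 or 2 with a library left out, where Psph was the call lost, and 1 in the test against a log2 fold change of 1, where 1 member was lower. Psat1, Mthfd1, Mthfd2, Shmt2 and Psph did not pass that stricter test, whose adjusted p was 0.932 for Mthfd1 and 1 for the others. The difference in the log2 ratio of Aldh1l2 to Aldh1l1, 7.28 with a pseudocount of 0.5, was 4.76 with one of 5 and 7.92 from the fitted fold changes, since Aldh1l1 held 1 count in SKI-II. The mitochondrial share differed by 8.38 percentage points from raw counts without length scaling. Replicate numbers were not shown to pair the libraries: deviations from the group means correlated at 0.246, 0.00994 and 0.458 for numbers 1, 2 and 3, and not every library correlated best with its own number. With the number as a replicate block, 2 members were higher and 5 lower, and the mitochondrial share differed by 6.05 points as before (exact sign-flip permutation p = 0.25, the smallest possible). Depth limits Aldh1l1 most among the genes of the pairs.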

Other observations

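Other regulators and branches were read beside the members. Among 6 other factors known to act on these genes, Myc rose from 7.77, 10.1 and 7.92 normalized counts in DMSO replicates 1 to 3 to 130, 80.2 and 36.7 in SKI-II, by 3.24 on the log2 scale (edgeR adjusted p = 0.00094). Its relative Mycn was far more abundant and fell, from 17604 ± 2064 (SD, n = 3) to 10472 ± 3401, by 0.75 on the log2 scale (adjusted p = 0.0247), a call kept in 3 of the 6 fits that left out a library. Foxm1, a factor of dividing cells, fell by 2.21 on the log2 scale (adjusted p = 6.9e-06). Nfe2l2, which encodes Nrf2, was not called, at -0.01. This is the level of its mRNA and not of the protein, which the authors reported to be higher with SKI-II in an ELISA.

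In methionine metabolism and transsulfuration, Ahcy, which clears S-adenosylhomocysteine, fell from 2096 ± 250 to 777 ± 86.3 normalized counts (SD, n = 3), by 1.43 on the log2 scale (edgeR adjusted p = 6.4e-05). Cth, which makes cysteine from cystathionine, rose by 1.06 (adjusted p = 0.0111), while Cbs, the enzyme before it that uses serine, held 13 counts over the DMSO libraries and 1 over the SKI-II libraries. In proline synthesis, Pycr1, a mitochondrial enzyme, rose from 290 ± 18.9 to 595 ± 90.0 (SD, n = 3), by 1.04 on the log2 scale (adjusted p = 0.000776), and its relative Pycrl was not called, at -0.32.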
